A study of Mus musculus with 8 samples.

Results

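Complement proteins tag material for removal by phagocytes, and microglia use them to trim synapses. The RNA of 9 genes of this system was followed in single nuclei of mouse cortex, by cell class and by mouse. C1qa, C1qb, C1qc, C3 and C4b encode complement components, Itgam and C3ar1 encode complement receptors, Cd47 encodes a surface protein that holds phagocytes back, and Sirpa encodes the receptor that reads it. The genes form a list of symbols, with no threshold on their values, and are 9 of the 31053 genes in the files. The study compared 4 Wt with 4 Ifnar1-/- mice, with 2 females and 2 males of each genotype and 1 library per mouse. All mice were naive, 6 weeks old and of the strain C57BL6J, and cortical tissue was used throughout. Ifnar1-/- mice lack a subunit of the receptor for type I interferons in the whole body, so every cell class of those mice carries the knockout. The comparison asks whether the loss of this receptor changes the cell-specific transcriptome of the cortex.

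The classical pathway starts when C1q, a protein built from the products of C1qa, C1qb and C1qc, binds a surface. C4 and then C3 are cleaved and attached there, and fragments of C3 are read by the integrin chain encoded by Itgam or, when released, by the receptor encoded by C3ar1. In the brain, microglia are known as the main source of C1q and carry both receptors, whereas CD47 on neurons engages SIRPα on microglia and protects synapses from engulfment. Type I interferons are known inducers of several complement genes in other settings.

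C1qa, C1qb and C1qc lie next to each other on chromosome 4 (GRCm38, minus strand, GENCODE gene models as supplied), at 136895917 to 136898803, 136880129 to 136886187 and 136889804 to 136893065. Their upstream sequences are shown because these neighbours had nearly the same distribution over the cell classes. RefSeq windows of 250 bases before to 50 bases after the start were matched for 6 of the 9 genes (C1qb, C1qc, C3, Itgam, C3ar1 and Cd47), and not for C1qa, C4b and Sirpa. The bases upstream of C1qb and of C1qc follow 5′ to 3′ on the minus strand of GRCm38.p6, at chr4:136886201-136886450 and chr4:136893066-136893164. Capitals mark the core GAGGAA, which is bound by the myeloid factor PU.1, on either strand.
C1qb: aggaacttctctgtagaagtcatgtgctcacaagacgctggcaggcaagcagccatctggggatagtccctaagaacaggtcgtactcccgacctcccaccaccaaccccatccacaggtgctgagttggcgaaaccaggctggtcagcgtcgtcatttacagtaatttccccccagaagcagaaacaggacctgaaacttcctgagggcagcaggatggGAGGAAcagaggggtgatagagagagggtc
C1qc: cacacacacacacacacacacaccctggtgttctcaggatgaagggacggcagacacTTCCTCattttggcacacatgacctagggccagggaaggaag

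The core GAGGAA was searched on both strands of the 300-base windows of 32851 promoters and was found in 28.3% of them. It occurred 1 time each in the windows of C1qb and C1qc, 3 times in that of Itgam, and not in those of C3, C3ar1 and Cd47. The core of the interferon-stimulated response element, GAAA followed after any 2 bases by GAAA, found in 3.44% of all windows, and the gamma-activated site TTCNNNGAA, found in 8.3%, had no match in the windows of these 6 genes. A match describes letters only, and the absence of one covers only these windows.

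Of 56780 barcodes, 52079 nuclei were kept, 26197 from Wt and 25882 from Ifnar1-/- mice, with 44063346 to 58423423 unique molecular identifiers (UMIs, each counting 1 captured RNA molecule) per library. Nuclei were clustered, and each cluster was named from marker genes that include none of the 9 genes, so that "microglia" here stands for microglia-like nuclei and likewise for the other classes. There were 21644 glutamatergic neurons, 7227 GABAergic neurons, 2290 striatal projection neurons, 5828 oligodendrocytes, 209 newly formed oligodendrocytes, 456 oligodendrocyte precursors, 4385 microglia, 208 border macrophages and 162 astrocytes, and 797 to 2230 nuclei per library were left unnamed. The libraries shared 384 barcodes, between 3 and 30 per pair of libraries. Levels are given as CPM (counts per 1000000), the UMIs of a gene scaled to a common total of the class and library, and compared between classes or mice for the same gene. The libraries were clustered together without correction for differences between them, whereas the study integrated its samples before clustering. Microglia fell into 2 clusters that split by library, largely along sex, rather than by genotype. Cluster 1 held 92.9% to 98.95% of the microglia of all 4 male libraries and Ifnar1-/- F1, but 16.92% of those of Wt F1, 44.27% of Wt F2 and 11.64% of Ifnar1-/- F2. Ifnar1 itself was counted at 16.2 to 19.9 CPM in Wt and 13.9 to 16.8 CPM in Ifnar1-/- libraries over all nuclei, and since counts per gene do not show whether the UMIs came from the disrupted part, this level does not check the labels.

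C1qa, C1qb and C1qc, the chains of the protein that starts the classical pathway, were counted mainly in microglia. Microglia held 91% of all 36032 UMIs of C1qa, 89.8% of 29480 for C1qb and 90.3% of 22974 for C1qc, although they were 4385 of the 52079 nuclei. Pooled over libraries, C1qa stood at 4921 CPM in microglia, 927 in border macrophages, the macrophages of meninges and vessels, and 5.06 in glutamatergic neurons. The same classes stood at 3971, 724 and 4.84 CPM for C1qb and at 3115, 586 and 3.60 CPM for C1qc. For each chain the ranges over the 8 libraries of microglia, border macrophages and the class ranked after them did not overlap, as the plot of levels by class shows.

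**Figure D1:**
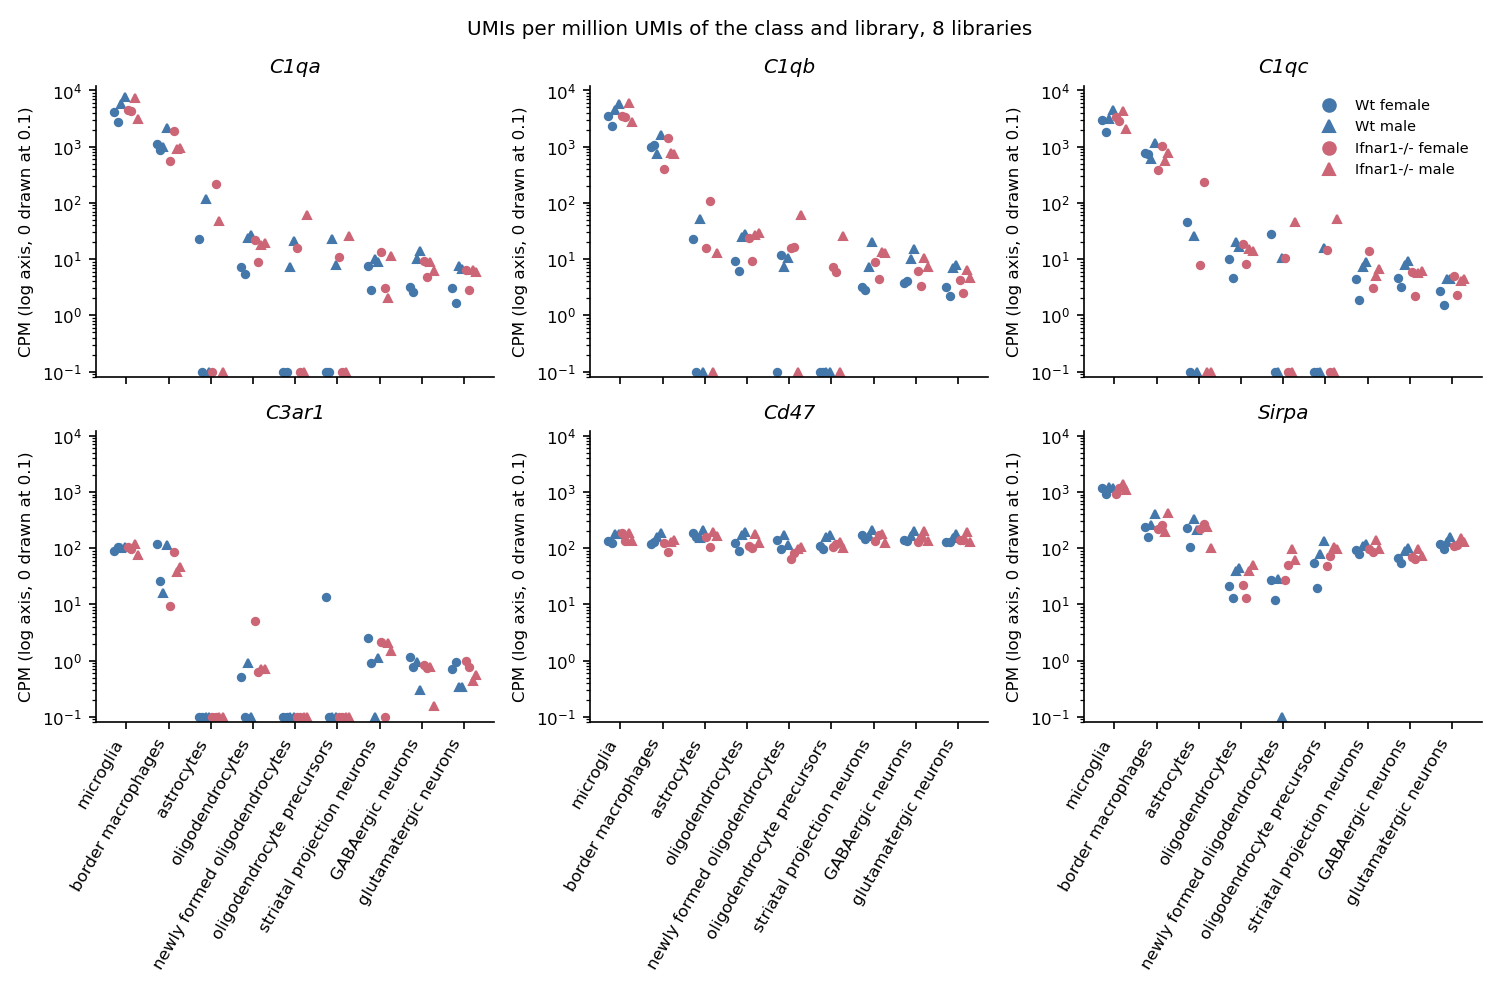
CPM (log axis, 0 drawn at 0.1) of 6 of the 9 genes in 9 cell classes, 1 point per mouse, circles for females and triangles for males. C1qa, C1qb and C1qc fall from 1861 CPM or more in microglia to 15.2 CPM or less in glutamatergic and GABAergic neurons, Sirpa is highest in microglia, and Cd47 runs level across all classes.

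Within microglia the level of C1qa was 4109.6, 2728, 5653 and 7513 CPM in Wt F1, F2, M1 and M2, and 4431, 4365, 7452 and 3125 CPM in Ifnar1-/- F1, F2, M1 and M2. The lowest and the highest library were both Wt, so that the Wt range enclosed that of Ifnar1-/-. C1qb read 3520.5, 2311, 4495 and 5669.9 CPM in Wt and 3521, 3401, 5999 and 2739 CPM in Ifnar1-/- in the same order. C1qc read 2963, 1861, 3101 and 4448 CPM in Wt and 3372, 2902, 4391 and 2083 CPM in Ifnar1-/-. The chains shared their extremes: Wt F2 was lowest for each, Ifnar1-/- M2 was next, and Wt M2 and Ifnar1-/- M1 were the upper pair. In cluster 1 alone, which has C1qa, C1qb and C1qc among its leading genes together with Trem2, the level of C1qa ranged from 3088 CPM in Wt F2 and 3113 CPM in Ifnar1-/- M2 to 7603 CPM in Wt M2.

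**Figure D2:**
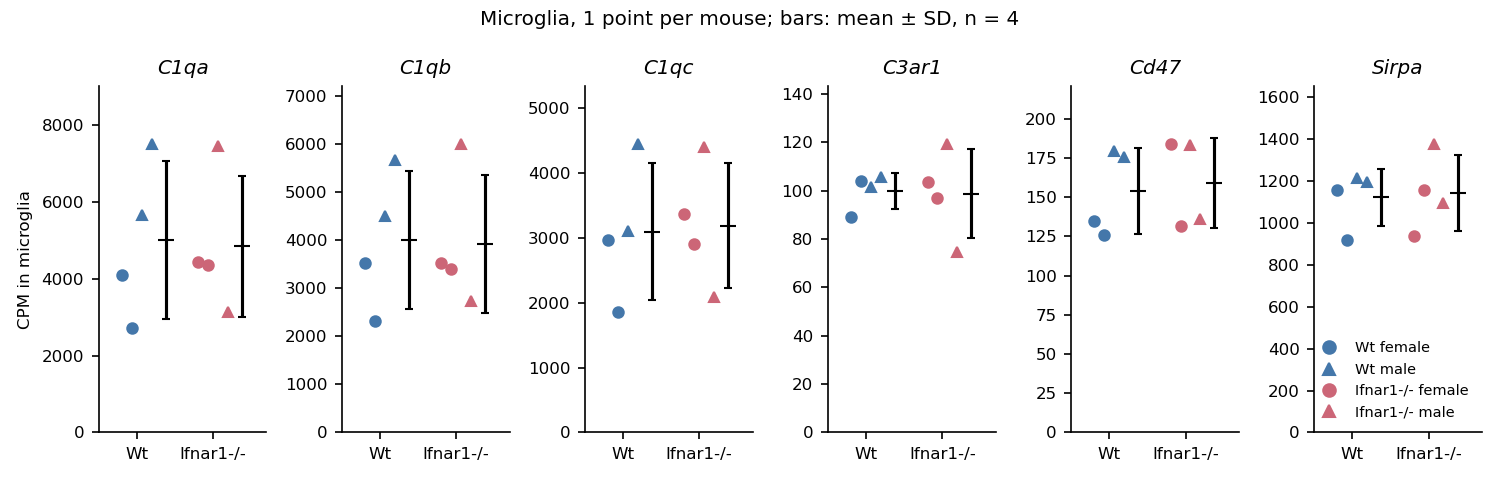
CPM in microglia (linear axis from 0) of 6 genes, 1 point per mouse, with mean and SD over the 4 mice of each genotype. The points of Wt and Ifnar1-/- mice overlap for every gene, and C1qa spreads from 2728 to 7513 CPM within Wt alone.

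Nearly every microglial nucleus held C1q RNA. After each nucleus was thinned to 1000 UMIs, 94.55% of microglia had at least 1 UMI of C1qa, 93.04% of C1qb and 89.8% of C1qc, and before thinning C1qa was seen in 97.42% (95% Wilson interval 96.91 to 97.85, counting error only). Any of the 3 chains was seen in 98.06% to 100% of thinned microglia per library. All 3 together were seen in 60.58% in Wt F2 and 71.63% in Ifnar1-/- M2, the libraries with the lowest levels, and in 80.59% to 95.69% in the others. In thinned glutamatergic neurons C1qa was seen in 0.642%, at a median depth of 8773 UMIs before thinning against 1472 in microglia.

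The low C1q counts outside microglia were of the size of other microglial transcripts there. In glutamatergic neurons the chains stood at 0.103% to 0.122% of their microglial CPM, and the 8 microglial markers (among them Csf1r, Cx3cr1, P2ry12 and Tmem119) at 0.0769% to 3.03% with a median of 0.137%. The chains stood at 0.148% to 0.194% in GABAergic neurons (marker median 0.158%), 0.347% to 0.522% in oligodendrocytes (0.379%) and 0.688% to 1.02% in astrocytes (1.08%). Border macrophages stood apart in the pooled CPM, with the chains at 18.2% to 18.8% of the microglial level and C3ar1 at 34.5%, against 8.63% to 18.3% for the markers. Pooling weighs the libraries unequally, as Ifnar1-/- F1 gave 72 of the 208 border macrophages and 428807 UMIs. That library had the lowest C1qa of this class, 555 CPM against a library median of 968 CPM. C3ar1 rested on 34 UMIs in this class, with 9.33 to 121 CPM over the libraries. The proportions of the chains were alike in the myeloid classes, with C1qa, C1qb and C1qc giving 41%, 33.1% and 25.9% of the C1q UMIs in microglia and 41.4%, 32.4% and 26.2% in border macrophages. In oligodendrocytes they gave 33.2%, 40.3% and 26.5% of 729 UMIs, and in glutamatergic neurons 37.5%, 35.8% and 26.7% of 2787 UMIs. Border macrophages also held the 6 markers of glutamatergic neurons, at 96.6 to 784 CPM in sum over the libraries, and their part in the levels of that class was not tested.

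**Figure D3:**
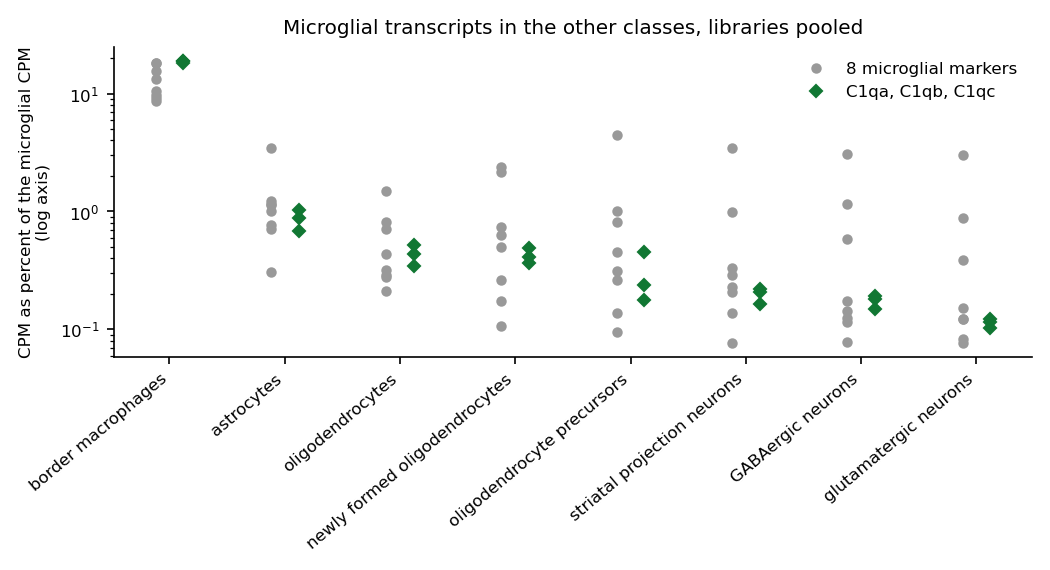
Pooled CPM in each other class as a percent of the microglial CPM (log axis), for C1qa, C1qb and C1qc (green) and the 8 microglial markers (grey). In neurons, oligodendrocytes and astrocytes the green points lie within the spread of the grey points, and in border macrophages they lie at 18.2% to 18.8%, with C1qa and C1qc above the highest marker at 18.3%.

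C4b and C3, which carry the cascade on from C1q, were scarce. C4b had 245 UMIs over all nuclei, with 85 in glutamatergic neurons, 63 in oligodendrocytes, 22 in border macrophages, 14 in astrocytes and 7 in microglia. Set against the size of the classes, its pooled level was 31.9 CPM in astrocytes, 21.6 in border macrophages, 4.44 in oligodendrocytes, 1.05 in microglia and 0.412 in glutamatergic neurons, but the ranges over libraries of neighbours in this order overlapped. The 14 astrocyte UMIs came from 6 libraries with 1 to 7 UMIs each. In thinned nuclei C4b was seen in 5.556% of astrocytes, 2.885% of border macrophages and 0.5148% of oligodendrocytes. The paralog C4a is not among the genes counted in these data, so its level could not be read. Reads shared by such near-identical copies make the count of C4b uncertain. C3 had 17 UMIs in all, 13 in Wt and 4 in Ifnar1-/-, of which 6 were in glutamatergic neurons and 3 were in the border macrophages of Wt M1. Microglia held 2 of them, and none was in astrocytes or oligodendrocytes, so that a level of C3 was not detectable in these classes at this depth.

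Itgam, the integrin chain of complement receptor 3, had 1 UMI in all 52079 nuclei. That count does not measure the gene. On chromosome 7 (GRCm38, plus strand, 128062640 to 128118491), 99.92% of Itgam is overlapped on the same strand by the gene model Gm49368 (128062683 to 128128160), and reads that match both models could not be assigned to either. Gm49368 had 96 UMIs, of which 73 were in microglia, with 25, 5, 5 and 15 in the microglia of Wt F1, F2, M1 and M2 and 1, 7, 5 and 10 in those of Ifnar1-/-. Whether those UMIs came from Itgam cannot be told from counts per gene. C3ar1, the receptor of the C3a fragment, had 910 UMIs, 70.9% of them in microglia. In microglia it read 88.96, 104, 101 and 105 CPM in Wt and 104, 97.03, 119 and 74.8 CPM in Ifnar1-/-, a narrower spread than that of the C1q chains. Its pooled level was 96.8 CPM in microglia, 33.4 in border macrophages with overlapping ranges, and 0 to 1.15 in the other classes. It was seen in 8.597% of thinned microglia and in 0 of 162 astrocytes, which allows a share of nuclei with a UMI of up to 1.85% (3 nuclei of 162) and does not limit the share that express the gene.

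Cd47, the signal that holds phagocytes back, was spread over all classes at a similar level. Its pooled CPM ran from 107 in newly formed oligodendrocytes to 164 in astrocytes, with 140.0 in oligodendrocytes, 152 in microglia, 149 in glutamatergic neurons and 159 in GABAergic neurons, and the library ranges of all neighbours in this order overlapped. Glutamatergic neurons held 57.2% of its 53916 UMIs and GABAergic neurons 15.3%. After thinning it was seen in 14.6% of glutamatergic neurons, 14.8% of GABAergic neurons, 13.3% of oligodendrocytes and 14.6% of microglia. Among the 13 named neuronal subtypes the level differed more. It was highest in layer 5/6 near-projecting neurons (NP) at 295 CPM, with 227 to 387 CPM over the libraries, and above the layer 6 corticothalamic (CT) neurons, next in order at 208 CPM, in 8 of 8 libraries although the ranges overlapped. Layer 6b neurons (202 CPM) and Pvalb interneurons (192 CPM) followed. Layer 2/3, 4 and 5 intratelencephalic (IT) neurons stood at 125, 118 and 129 CPM, and layer 5 extratelencephalic (ET) neurons at 118 CPM on 77 UMIs. Glutamatergic neurons without a subtype name, left out of this order, stood at 133 CPM on 11116 UMIs. GABAergic neurons without a subtype name stood at 166 CPM on 584 UMIs.

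Sirpa, the receptor of CD47, was highest in microglia and was also counted in neurons. In microglia it read 1159, 919, 1214 and 1195 CPM in Wt and 938, 1159, 1378 and 1094 CPM in Ifnar1-/-, a range that did not overlap that of any other class. The pooled order after microglia (1152 CPM) was border macrophages (252), astrocytes (219), glutamatergic neurons (127), striatal projection neurons (102), GABAergic neurons (77.7), oligodendrocyte precursors (75.8), oligodendrocytes (33.8) and newly formed oligodendrocytes (33.4). Each neighbouring pair from border macrophages down overlapped over the 8 libraries, but within a library glutamatergic neurons stood above striatal projection neurons, and these above GABAergic neurons, in 8 of 8. Although the level was highest in microglia, 53.6% of its 48844 UMIs lay in glutamatergic neurons and 15.7% in microglia. Among the named neuronal subtypes it ran from 160 CPM in claustrum and Car3 neurons, 149 in layer 6 CT neurons and 144 in layer 5/6 NP neurons down to 86.4 in Pvalb, 81.9 in Sst, 64.4 in Lamp5 and 54.4 CPM in Vip interneurons.

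**Figure D4:**
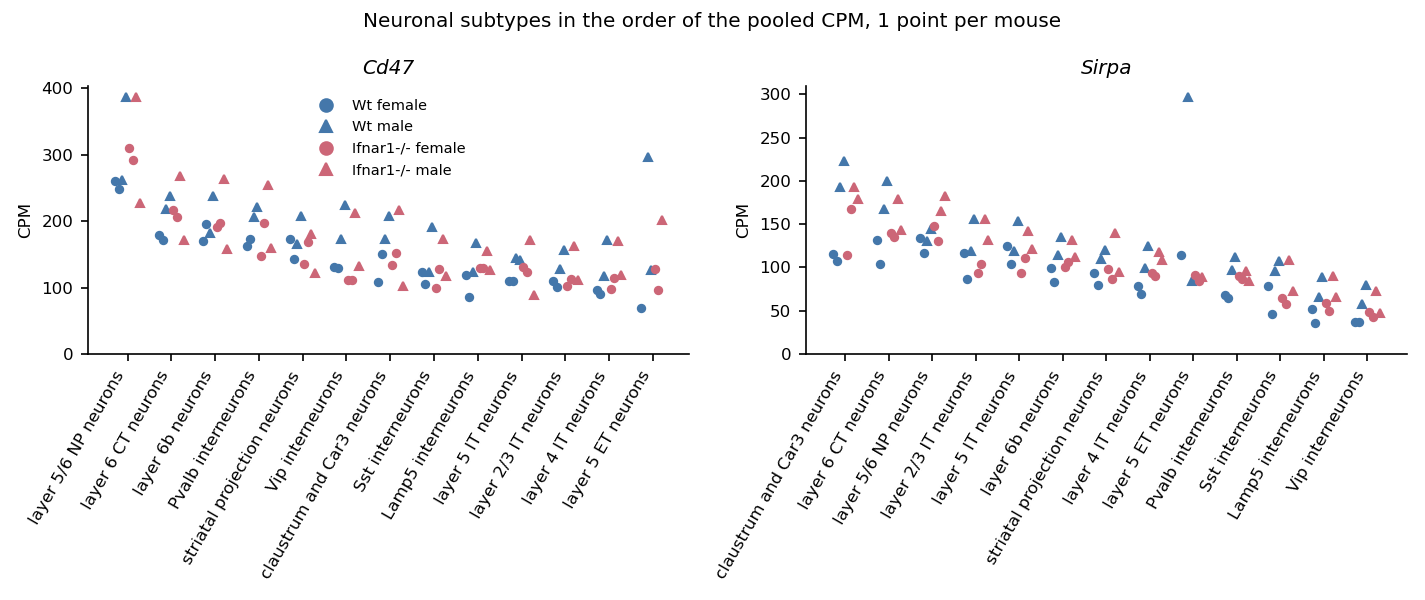
CPM (linear axis from 0) of Cd47 and Sirpa in 13 neuronal subtypes, ordered by pooled CPM, 1 point per mouse. Cd47 is highest in layer 5/6 NP neurons, where all mice lie at 227 CPM or above, and Sirpa is lowest in Vip interneurons, where all mice lie at 79.8 CPM or below.

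The genes whose level over the 9 classes was most like that of a member were sought among 17761 genes with at least 200 UMIs, by Pearson correlation of log2(CPM + 1) averaged over libraries. For C1qa these were Slco2b1 (0.998), C1qc (0.998) and Csf1r (0.996), for C1qb they were C1qa (0.993), Fermt3 (0.993) and Cd86 (0.993), and for C1qc they were Slco2b1 (0.999), Csf1r (0.999) and C1qa (0.998). C3ar1 was most like Rcsd1 (0.996), Tmem140 and Ptpn18, Sirpa most like Mylip (0.977), Kpna3 and Mgat4b, Cd47 most like Alkbh2 (0.958), Plcxd1 and Gm44053, and C4b most like Tdg (0.926), Gm44973 and Cdc34. These points share libraries and differ in depth between classes, so the values are descriptions.

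In the members that could be tested, no difference between the genotypes beyond the spread between mice was found. In microglia, 0 of the 6 members with enough counts passed at 0.05 (quasi-likelihood F test of edgeR, p adjusted by Benjamini-Hochberg), where 0.105% of all 9558 genes tested did (10 genes). The log2 fold change, Ifnar1-/- minus Wt, was -0.04 for C1qa (95% interval -0.77 to 0.70), -0.02 for C1qb (-0.70 to 0.65) and 0.05 for C1qc (-0.59 to 0.69). Mean C1qa was 5001 ± 2057 CPM in Wt and 4843 ± 1840 CPM in Ifnar1-/- microglia (SD, n = 4). For the receptor C3ar1 the change was -0.03 (-0.44 to 0.38), and Ifnar1-/- microglia averaged 98.7 ± 18.5 CPM (SD, n = 4). For Cd47 it was 0.03 (-0.38 to 0.44) and for Sirpa 0.03 (-0.34 to 0.41).

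The other classes gave the same count. Of 7 members tested in glutamatergic neurons, 5 each in GABAergic neurons and oligodendrocytes, 4 in striatal projection neurons, 2 each in oligodendrocyte precursors and astrocytes and 7 over all nuclei, 0 passed in edgeR. The share of all genes that passed was 0.0667%, 0.027%, 0.0464%, 0.0371%, 0%, 0% and 0.0501% in that order. Over the 38 values, microglia included, 0 had an unadjusted p under 0.05, and DESeq2 called 0 as well. For Cd47 in glutamatergic neurons the change was 0.04 (95% interval -0.27 to 0.35), on 129, 127, 153 and 180 CPM in Wt and 140, 142, 190 and 127 CPM in Ifnar1-/- mice, which overlap. For Sirpa there it was 0.03 (-0.29 to 0.35), on 118, 95.7, 130 and 158 CPM in Wt and 110, 115, 153 and 129 CPM in Ifnar1-/-. Over all nuclei the change of C1qa was -0.34 (-1.44 to 0.76), on levels from 32.7 CPM in Ifnar1-/- F1 to 209 CPM in Wt M2. Such a sum follows the number of microglia as well as their RNA, and fewer microglia and less C1q RNA per microglial nucleus cannot be told apart in it. C3 and Itgam had too few counts to be tested in any class, and C4b was tested in glutamatergic neurons and over all nuclei only.

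**Figure D5:**
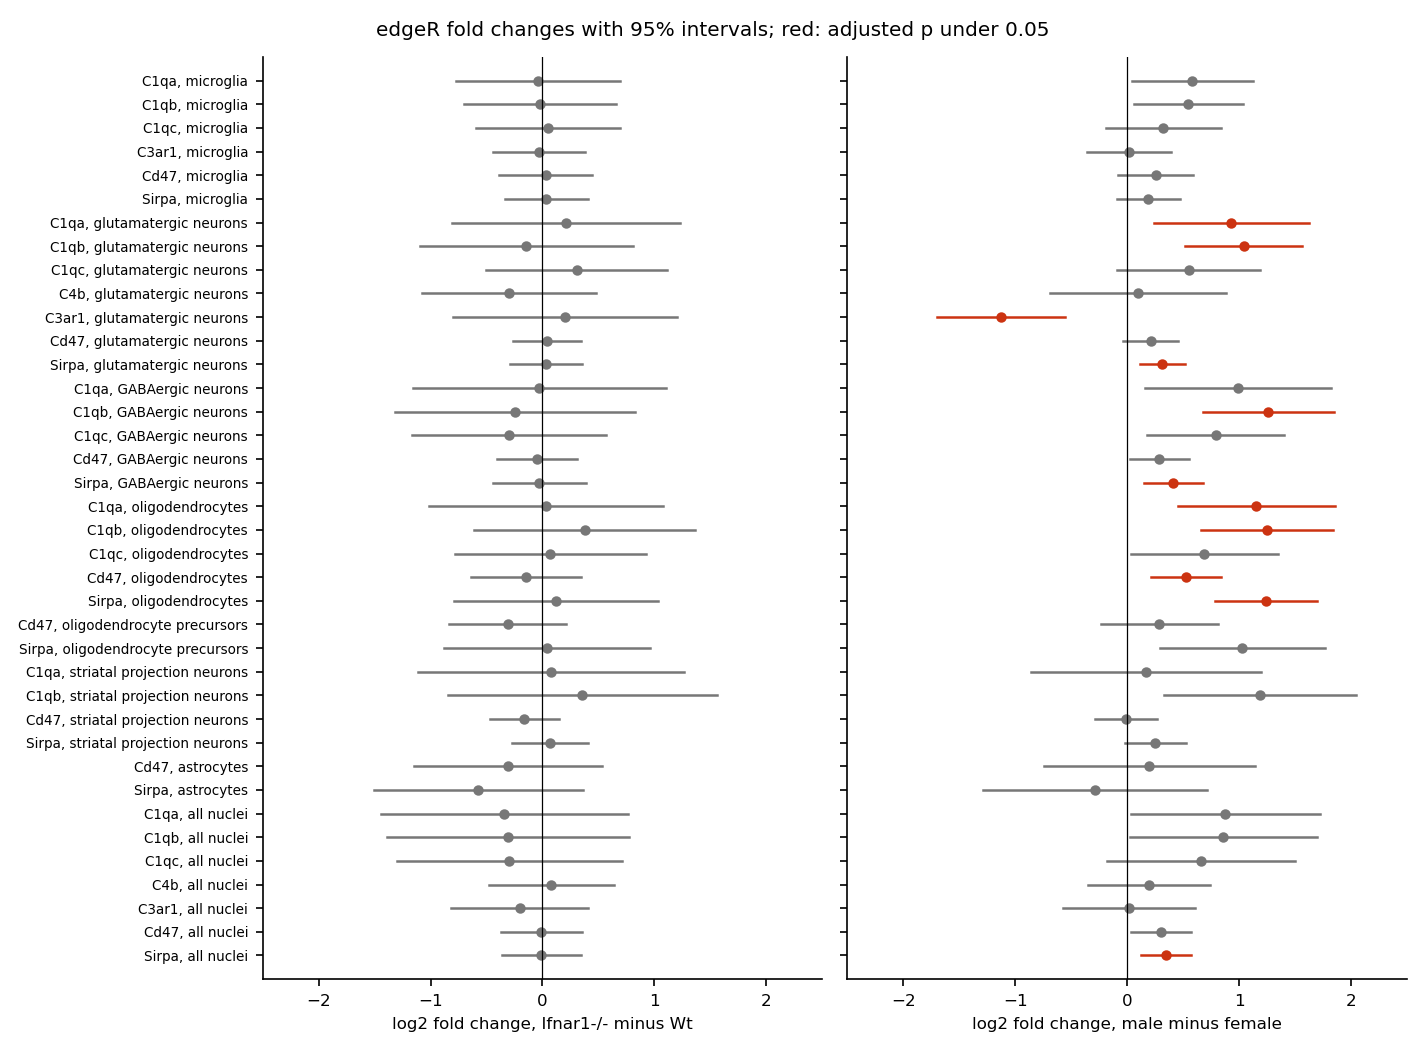
log2 fold changes with 95% intervals from edgeR for each gene and class tested, by genotype (left) and by sex (right). On the left every interval includes 0. On the right the values with an adjusted p under 0.05 are red, and C3ar1 in glutamatergic neurons is the red value below 0.

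The share of microglia among the nuclei kept varied widely between libraries. It was 12.46%, 8.918%, 5.354% and 12.38% in Wt F1, F2, M1 and M2, and 1.896%, 10.16%, 8.524% and 12.19% in Ifnar1-/- F1, F2, M1 and M2. The mean was 9.777% ± 3.379 in Wt and 8.192% ± 4.457 in Ifnar1-/- (SD, n = 4), a difference of -1.585 percentage points (exact permutation test, two-sided, p = 0.5714, where 0.0286 is the smallest p that 4 against 4 allows). Without Ifnar1-/- F1, the library with 155 microglia, the difference was 0.513 percentage points (exact p = 0.9143). The C1q level of the microglia in that library, 4431 CPM of C1qa, was near the median of the 8 libraries, 4398 CPM. The lowest shares were those of Ifnar1-/- F1 and Wt M1. Their microglia also had the lowest median depths, 1081 and 1117 UMIs per nucleus, close to the lower limit set for nuclei kept. Over 1500 UMIs per nucleus the mean share was 4.814% in Wt and 4.84% in Ifnar1-/- mice, so the share depends on that limit. The part of depth in the spread between libraries was not tested.

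More of these genes passed by sex than by genotype, as was the case over all genes. Sex was a second factor in the design, with 4 females and 4 males, and whether the sexes were prepared on separate days is not given in the sources used here. In oligodendrocytes 4 of 5 members tested passed by sex, each higher in males, where 23.6% of all genes passed in either direction in the edgeR test (Benjamini-Hochberg adjusted p under 0.05). Sirpa read 20.97, 13.3, 22.2 and 13.1 CPM in the females Wt F1, Wt F2, Ifnar1-/- F1 and Ifnar1-/- F2, and 38.95, 44.6, 38.5 and 51.1 CPM in the males Wt M1, Wt M2, Ifnar1-/- M1 and Ifnar1-/- M2. Its log2 fold change, male minus female, was 1.24 (standard error 0.21, edgeR adjusted p = 0.00111), and the sexes did not overlap. Cd47 read 122, 89.7, 109 and 100.3 CPM in females and 169, 191, 179 and 122 CPM in males, with a change of 0.52 (edgeR adjusted p = 0.0189), and the lowest male, Ifnar1-/- M2 at 121.79 CPM, lay just above the highest female, Wt F1 at 121.71 CPM. C1qb (1.25, edgeR adjusted p = 0.00529) and C1qa (1.16, edgeR adjusted p = 0.0213) were the other pair. For C1qa the sexes overlapped, with the female Ifnar1-/- F1 above the males Ifnar1-/- M1 and Ifnar1-/- M2. Markers of other classes moved with sex in these oligodendrocyte sums. The 6 markers of glutamatergic neurons summed to 53.6 to 91.0 CPM in females and 120 to 216 CPM in males, each of the 6 had a higher mean in males and none was at 0, and glutamatergic neurons held Sirpa at 127 CPM against 33.8 CPM in oligodendrocytes. The 8 microglial markers summed to 87.8 to 140.1 CPM in females and 101 to 133 CPM in males, with 6 of 8 higher on average in males and none at 0. The part of either in the difference by sex was not tested.

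In glutamatergic neurons 4 of 7 members passed by sex, where 29.5% of all genes did. Sirpa was higher in males by 0.31 (edgeR adjusted p = 0.0262), at 110 ± 9.73 CPM in females and 143 ± 15.3 CPM in males (SD, n = 4), with no overlap. C1qb was higher by 1.04 (edgeR adjusted p = 0.0100) and C1qa by 0.93 (edgeR adjusted p = 0.0474), at 3.02 ± 0.920 and 3.45 ± 1.99 CPM in females and 6.52 ± 1.40 and 6.63 ± 0.730 CPM in males (SD, n = 4). For C1qa the sexes overlapped, with the female Ifnar1-/- F1 above the male Ifnar1-/- M2 and just above the male Ifnar1-/- M1. C3ar1 went the other way, with 129 UMIs in all, at 0.858 ± 0.138 CPM in females and 0.413 ± 0.10 in males (SD, n = 4) and a change of -1.13 (edgeR adjusted p = 0.0102). In GABAergic neurons 2 of 5 passed against 24.8% of all genes, Sirpa by 0.41 (edgeR adjusted p = 0.0296) and C1qb by 1.26 (edgeR adjusted p = 0.00729), both higher in males. The 8 microglial markers summed to 102 to 159 CPM in females and 77.7 to 97.6 CPM in males in glutamatergic neurons, and to 112 to 180.2 CPM and 106 to 110.04 CPM in GABAergic neurons, with 5 and 6 of the 8 higher on average in males and none at 0. Other genes held by microglia went both ways in male glutamatergic neurons. Tyrobp, Trem2 and Mertk were higher, by 1.14, 1.17 and 0.75. Itgb2 and Cd200r1 were lower, at -2.20 and -0.90, as was C3ar1. The part of microglial RNA in the neuronal differences was not tested. Over all nuclei Sirpa alone passed of 7 (0.35, edgeR adjusted p = 0.0300), against 27.2% of all genes.

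In microglia 0 of 6 members passed by sex in edgeR, where 19.7% of all genes did. C1qa and C1qb had an unadjusted p under 0.05 there, with changes of 0.58 (95% interval 0.04 to 1.12, adjusted p = 0.119) and 0.55 (0.06 to 1.03, adjusted p = 0.108), and the males included both the highest library and Ifnar1-/- M2, which was below all females but Wt F2. In striatal projection neurons 0 of 4 passed against 16% of all genes, with C1qb at 1.19 (adjusted p = 0.0562), and 1 of 4 had an unadjusted p under 0.05. In oligodendrocyte precursors 0 of 2 passed against 3.51%, with Sirpa at 1.03 (adjusted p = 0.123) and 1 of 2 at an unadjusted p under 0.05. In astrocytes 0 of 2 passed against 0.398%, and 0 had an unadjusted p under 0.05. These counts by sex moved when 1 library was left out. They fell to 2 in glutamatergic neurons without Wt F2, Wt M2 or Ifnar1-/- M1 and were 5 without Ifnar1-/- F1 or Ifnar1-/- M2. In oligodendrocytes they fell to 2 without Wt F2 or Wt M2 and were 5 without Ifnar1-/- F1. They ranged from 1 to 4 in GABAergic neurons, with 1 without Wt F1, Wt F2, Wt M2, Ifnar1-/- F2 or Ifnar1-/- M1 and 4 without Ifnar1-/- F1 or Ifnar1-/- M2. They reached 3 in microglia without Ifnar1-/- M2. They reached 1 in striatal projection neurons without Wt M1 or Ifnar1-/- F1. Over all nuclei they were 2 without Wt M1 or Ifnar1-/- M2 and 0 without any of the others but Wt F1.

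Whether the genotype effect differed between the sexes was tested as an interaction in the classes with 8 libraries. Of 36 values, 0 passed in edgeR, as did 0% of all genes, and 2 had an unadjusted p under 0.05. These were C1qa in GABAergic neurons (-1.95, unadjusted p = 0.0038, edgeR adjusted p = 1) and C1qa in oligodendrocytes (-1.49, unadjusted p = 0.025).

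A wider list of 89 complement and engulfment genes, 88 of them in the files, was counted by role. By genotype 0 of them passed in edgeR in any class. The number tested was 46 in microglia, 70 in glutamatergic and 52 in GABAergic neurons, 38 in oligodendrocytes, 15 in oligodendrocyte precursors, 32 in striatal projection neurons, 10 in astrocytes and 79 over all nuclei, with 0, 2, 1, 0, 1, 0, 1 and 0 at an unadjusted p under 0.05. The median log2 fold change of the list was 0.03 in microglia, beside -0.0025 over all genes, and 0.0032 in glutamatergic neurons, beside 0.00014. Of the alternative pathway, properdin (Cfp) had 3538 UMIs, and Cfb, 99.38% of which is overlapped by another gene model, had 1. Of the terminal pathway, C7 had 1971 UMIs at 8.19 CPM in glutamatergic neurons and C8g 608, and all others had fewer.

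Receptors and regulators differed in level between classes, and some were alike in several classes. Microglia held the integrin partner Itgb2 at 135 CPM pooled, the C5a receptor C5ar1 at 50.6 and the CD200 receptor Cd200r1 at 56.6 CPM. The engulfment receptors Mertk and Trem2 and the Trem2 adaptor Tyrobp stood at 2090, 1377 and 655 CPM there. Mertk was not particular to microglia, with an average log2 CPM in edgeR of 11.06 there and 10.69 in astrocytes. Clu, which holds back the terminal pathway, stood at 1390.0 CPM in astrocytes and 45.97 in glutamatergic neurons. Csmd1, a membrane protein known to inhibit complement, stood at 5668 CPM in glutamatergic neurons and 211 in microglia, while Csmd3 stood at 1012 and 2919 CPM. Oligodendrocyte precursors held both genes at such levels. The average log2 CPM of Csmd1 in edgeR was 12.8 in precursors and 12.47 in glutamatergic neurons. That of Csmd3 was 11.65 in precursors and 11.57 in microglia. Megf10, an engulfment receptor of glia, stood at 155 CPM in astrocytes and 189 in oligodendrocytes.

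By sex, genes of every role but the alternative pathway passed in at least 1 class. In microglia 8 of 46 passed, beside 19.7% of all genes, 6 higher in males (Adgrb1, Clu, Gas6, Nptx1, Sez6 and Sez6l2) and 2 lower (Cr2 and Csmd3). The markers of glutamatergic neurons summed to 103 to 305 CPM in female and 220 to 307.1 CPM in male microglia, and cluster 1 held nearly all microglia of the males but of only 1 of the 4 females, and their part in these differences was not tested. Adgrb1, a receptor for dying cells, was higher in males in microglia (1.87), glutamatergic neurons (1.07), GABAergic neurons (1.13), oligodendrocytes (1.09) and striatal projection neurons (1.06), and Gas6, which bridges dying cells to Mertk, in the same classes (0.96, 0.70, 0.76, 1.06 and 0.75). Cr2, complement receptor 2, was lower in males in microglia (-1.53), glutamatergic neurons (-1.11), GABAergic neurons (-1.18) and oligodendrocytes (-1.05). For both genes the sexes did not overlap in microglia, glutamatergic neurons, GABAergic neurons or oligodendrocytes. In glutamatergic neurons 28 of 70 passed, beside 29.5% of all genes, 15 higher and 13 lower. The higher ones were C1qa, C1qb, Sirpa, Adgrb1, Cd200, Clu, Cx3cl1, Gas6, Itgav, Megf10, Mertk, Nptx2, Ptpn11, Trem2 and Tyrobp, and the lower ones included C3ar1, C1s1, C4bp, C8a, Cd200r1, Cd93, Cr2, Csmd2, Itgb2, Masp2, Susd4 and Vsig4. Itgb2 fell by 2.20 on the log2 scale in males there, from 1.564 to 2.564 CPM in females to 0.2955 to 0.6838 CPM in males. In GABAergic neurons 11 of 52 passed, beside 24.8% of all genes, 9 higher (C1qb, Sirpa, Adgrb1, Clu, Cx3cl1, Gas6, Ptpn11, Trem2 and Tyrobp) and 2 lower, among them Cr2. In oligodendrocytes 15 of 38 passed, beside 23.6% of all genes, 12 higher (the 4 members, Adgrb1, Clu, Cx3cl1, Gas6, Lrp1, Nptx1, Sez6 and Tyrobp) and 3 lower (Cr2, Csmd2 and Csmd3). In striatal projection neurons 5 of 32 passed, beside 16% of all genes (Adgrb1, Clu, Cx3cl1, Gas6 and Itgav), all higher in males, and in oligodendrocyte precursors and astrocytes 0 passed in edgeR, with 5 and 1 at an unadjusted p under 0.05. Over all nuclei 18 of 79 passed, beside 27.2% of all genes, 9 in each direction, among them C1s2, lower by 1.22 on the log2 scale in males. The remaining named genes of the list, C2, Masp1, C6, Nptxr and Cfd, passed in no class.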

How the data were processed

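Single-nucleus RNA-seq (10x 3′ v3 chemistry) of cortical nuclei was analysed from the authors' deposited UMI count matrices, 1 per mouse. Reads were aligned by the authors to mm10 in Cell Ranger, relabelling transcripts as exons so that unspliced RNA was counted, and the submitters' processing notes also name Seurat 3.1.5. The deposited counts are raw and unfiltered for doublets. Unspliced counting and 3′ capture mean that overlapping gene models can lose shared reads.

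Nuclei with 200 to 6000 genes, over 1000 UMIs and under 10% mitochondrial UMIs were kept (54341), and 2262 doublets called per library by Scrublet's method were removed. Scanpy 1.11.5 clustered them on 40 components of 3000 variable genes (Leiden resolution 1.5), without integration of the libraries, and clusters were named from fixed markers. UMIs were summed per class and library and tested with edgeR 4.0.16 (TMM, filterByExpr, quasi-likelihood F test), with Benjamini-Hochberg adjustment over all genes of the class. A library with under 10 nuclei of a class was left out, which removed Wt F2 and Ifnar1-/- M1 from astrocytes and left 3 against 3. Sex was tested in the model genotype + sex. Alternatives were DESeq2 1.42.0, its size factors, library totals, no filter, over 1500 UMIs, a lower resolution, sex as covariate, the replicate block and leaving out each library.

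Same-numbered mice of the genotypes share a sex, and the design gives no pairing. Their deviations from the genotype means correlated at 0.168 to 0.54 in microglia and 0.298 to 0.64 in the other large classes. Mice that share a sex can correlate in this way, as 19.7% to 29.5% of genes passed by sex in these classes. Mice of the same sex with other numbers were not compared, so the correlations do not show a pairing by number. P-values measure the spread between mice. Intervals for shares of nuclei and limits from a count of 0 (3 nuclei) cover counting error only.

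The 9 genes and the wider list were chosen with earlier results of these data known. Of the wider list, genes that passed by genotype or sex and up to 3 genes per role with the most UMIs were named, although not every such gene is reported here.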

Additional observations from a re-analysis of the deposited data

Results flagged for a closer look

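In 74 groups of 4 mice of 1 genotype, a mouse was compared with the other 3 by Dixon's gap test at the 95% critical value, which by chance singles out about 1 group in 20. It singled out 5 values, and no explanation was tested for any of them.

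C1qa in glutamatergic neurons stood at 2.814 CPM in Ifnar1-/- F2, and at 5.959, 6.289 and 6.291 CPM in the other Ifnar1-/- mice. C1qc in GABAergic neurons stood at 2.195 CPM in the same mouse, and at 5.714, 5.826 and 6.023 CPM in the others. Ifnar1-/- F2 did not stand apart in microglia, where its C1qa level was 4365 CPM. C4b in Wt M2 stood at 0.7692 CPM in glutamatergic neurons on 18 UMIs, against 0.3351, 0.3561 and 0.4062 CPM in the other Wt mice, and at 0.9012 CPM over all nuclei, against 0.551, 0.5591 and 0.5726 CPM. Cd47 over all nuclei stood at 186.2 CPM in Ifnar1-/- M1, against 123.1, 128.2 and 133.7 CPM in the other Ifnar1-/- mice.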

How the results depend on the processing

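No member passed by genotype under any alternative (0 of 596 recomputed values, lowest adjusted p 0.875), including DESeq2, with 0 calls in every class. The replicate block, with 0 calls by genotype in every class, changed no call. Of the 596 values, 505 kept their sign and 91 changed it. The interval of every main value includes 0. Over 1500 UMIs per nucleus, the log2 fold change by genotype turned to 0.20 for C1qa in microglia, 0.25 for C1qb in microglia, 0.22 for C3ar1 in microglia, 0.053 for C3ar1 over all nuclei and 0.018 for Sirpa over all nuclei. With sex as a covariate, the log2 fold change by genotype turned to 0.030 for C1qa in microglia, 0.021 for C1qb in microglia, -0.0058 for Cd47 in microglia, 0.11 for C1qa in GABAergic neurons, -0.014 for C1qa in oligodendrocytes and -0.0098 for C1qc in oligodendrocytes. With the replicate block, the log2 fold change by genotype turned to 0.0023 for C1qa in microglia and 0.11 for C1qa in GABAergic neurons. In microglia cluster 1 only, an alternative chosen after seeing the data, the log2 fold change by genotype turned to -0.043 for C1qc in microglia and 0.086 for C3ar1 in microglia. At the lower clustering resolution, the log2 fold change by genotype turned to -0.0054 for C1qa in oligodendrocytes and 0.13 for Cd47 in the class named astrocytes. That class held 725 nuclei there against 162 in the main clustering, and its leading genes included Lgr5 and Cpa6 of a GABAergic cluster. With 1 mouse left out in turn, values that changed sign ranged in microglia from -0.32 to 0.24 for C1qa, -0.30 to 0.21 for C1qb, -0.14 to 0.29 for C1qc, -0.15 to 0.12 for C3ar1, -0.067 to 0.12 for Cd47 and -0.068 to 0.13 for Sirpa. They ranged in glutamatergic neurons from -0.067 to 0.53 for C1qa, -0.39 to 0.15 for C1qb, -0.43 to 0.022 for C4b, -0.055 to 0.57 for C3ar1, -0.073 to 0.14 for Cd47 and -0.064 to 0.15 for Sirpa. They ranged in GABAergic neurons from -0.30 to 0.46 for C1qa, -0.51 to 0.22 for C1qb, -0.19 to 0.077 for Cd47 and -0.15 to 0.12 for Sirpa. They ranged in oligodendrocytes from -0.20 to 0.45 for C1qa, -0.15 to 0.31 for C1qc, -0.31 to 0.038 for Cd47 and -0.26 to 0.42 for Sirpa. They ranged in oligodendrocyte precursors from -0.20 to 0.49 for Sirpa. They ranged in striatal projection neurons from -0.44 to 0.35 for C1qa and -0.052 to 0.14 for Sirpa. They ranged over all nuclei from -0.59 to 0.19 for C1qa, -0.54 to 0.16 for C1qb, -0.52 to 0.16 for C1qc, -0.046 to 0.27 for C4b, -0.16 to 0.10 for Cd47 and -0.10 to 0.12 for Sirpa.

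By sex, the number of members with an adjusted p under 0.05 depended on the setting more. It rose from 0 to 3 in microglia and from 2 to 5 in GABAergic neurons without a filter on low counts, and from 0 to 1 in striatal projection neurons without that filter or with library totals only. Over all nuclei it fell from 1 to 0 over 1500 UMIs per nucleus. With 1 mouse left out it ranged from 0 to 3 in microglia, 2 to 5 in glutamatergic neurons and likewise in oligodendrocytes, 1 to 4 in GABAergic neurons, 0 to 1 in striatal projection neurons and 0 to 2 over all nuclei, and the mice concerned are named beside the comparison by sex. In microglia cluster 1 only it stayed at 0. The cause was not tested. The difference in the share of microglia turned to 0.0256 percentage points over 1500 UMIs per nucleus and ranged from -3.06 to 0.513 with 1 mouse left out, where leaving out Ifnar1-/- F1 gave the highest value.

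C3, C4b and Itgam had too few counts to be tested in microglia, with a median of 1472 UMIs per nucleus. C3 and Itgam were tested in no other class either, and the count of Itgam does not measure that gene. The class of oligodendrocyte precursors had no counterpart at the lower resolution, and astrocytes were merged with other nuclei in it, so that setting was not run for the former. Border macrophages, with 208 nuclei, were described and not tested.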
